A study of Mus musculus with 9 samples.

Results

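The 36 genes described here make, modify, transport and break down the ceramides and other lipids that seal the outer layer of the skin. They were taken by gene symbol from the FPKM table and joined to the count table by gene ID, and all 36 were found among the 55401 genes of the count table. The libraries were made from polyadenylated RNA of the back skin of male C57BL/6 mice, aged 6 to 8 weeks at the start of the experiment. Every animal of both groups was sensitized with 1% dinitrochlorobenzene (DNCB), a reactive molecule that causes contact dermatitis when painted on skin, on day 1, and challenged with 0.5% DNCB from day 4 to day 21. The FJDHF group (5 libraries) received Fangji Dihuang formulation, an herbal decoction, at the dose the study calls medium, by mouth each day after day 7, while the Model group (4 libraries) received water, and skin was taken on day 28. No group without DNCB was analysed here, so each comparison is between 2 groups of inflamed skin. The tables name their columns by codes. Codes beginning with MR were assigned to FJDHF and codes beginning with MXL to Model, because their numbers fit the group sizes and the letters MX abbreviate the Chinese term for a model, and every direction below rests on that assignment. No code was tied to 1 animal, and whether a code such as MR3_4 marks pooled RNA was not checked, so each n counts libraries.

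Ceramides are built from a sphingoid base and a fatty acid, and those of the epidermis carry unusually long fatty acids, some of them bearing an omega-hydroxyl group esterified to linoleic acid. Keratinocytes load the glucosylated precursors and sphingomyelin into lamellar bodies and secrete them at the border of the cornified layer, where hydrolases release the free ceramides and lipoxygenases prepare some of them for attachment to the cornified envelope. Inherited loss of many of these enzymes causes ichthyosis, and ceramide levels are known to be lowered in atopic dermatitis.

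Total counts per library were 74648669 to 79474215, so the depth was similar in all 9 libraries. The skin markers Krt5, Krt14, Krt1, Krt10 and Col1a1 were present at 202.6 CPM or more in every library. The libraries differed in the scores of tissue marker genes. MXL_3 had the highest skeletal muscle score of the 9 libraries, 10.45 as the mean log2(CPM + 0.5) of 10 muscle genes, where the others had 5.49 to 9.56, and it also had the lowest scores for basal keratinocyte, differentiated keratinocyte and sebaceous gland genes. In whole skin, fewer cells of a type and less RNA per cell cannot be told apart.

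No member passed an adjusted p of 0.05 between the groups in the edgeR quasi-likelihood test (0 of 36, Benjamini-Hochberg adjusted p = 1.00 for the lowest), and 0.0% of the 20817 genes tested did. DESeq2 (0.00961% of all genes called) and limma on log2(FPKM + 1) also called 0 members. All 36 members passed the filter on low counts. At an unadjusted p under 0.05 there were 4 members, Them5, Lipm, Alox12b and Sdr9c7, and all 4 had the higher level in the FJDHF group. That is 11.1% of the members, where 1.53% of all genes tested met the same threshold, 0.773% doing so with the higher and 0.759% with the lower level in the FJDHF group. The same 4 members were under 0.05 with DESeq2 (2.21% of all genes) and with limma (1.62% of all genes). Of the 36 members, 25 had the higher fitted level in the FJDHF group and 11 the lower, so 69.4% lay above 0 where 44.1% of all genes did. The median log2 fold change was 0.11 over the members and -0.03 over all genes.

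**Figure D1:**
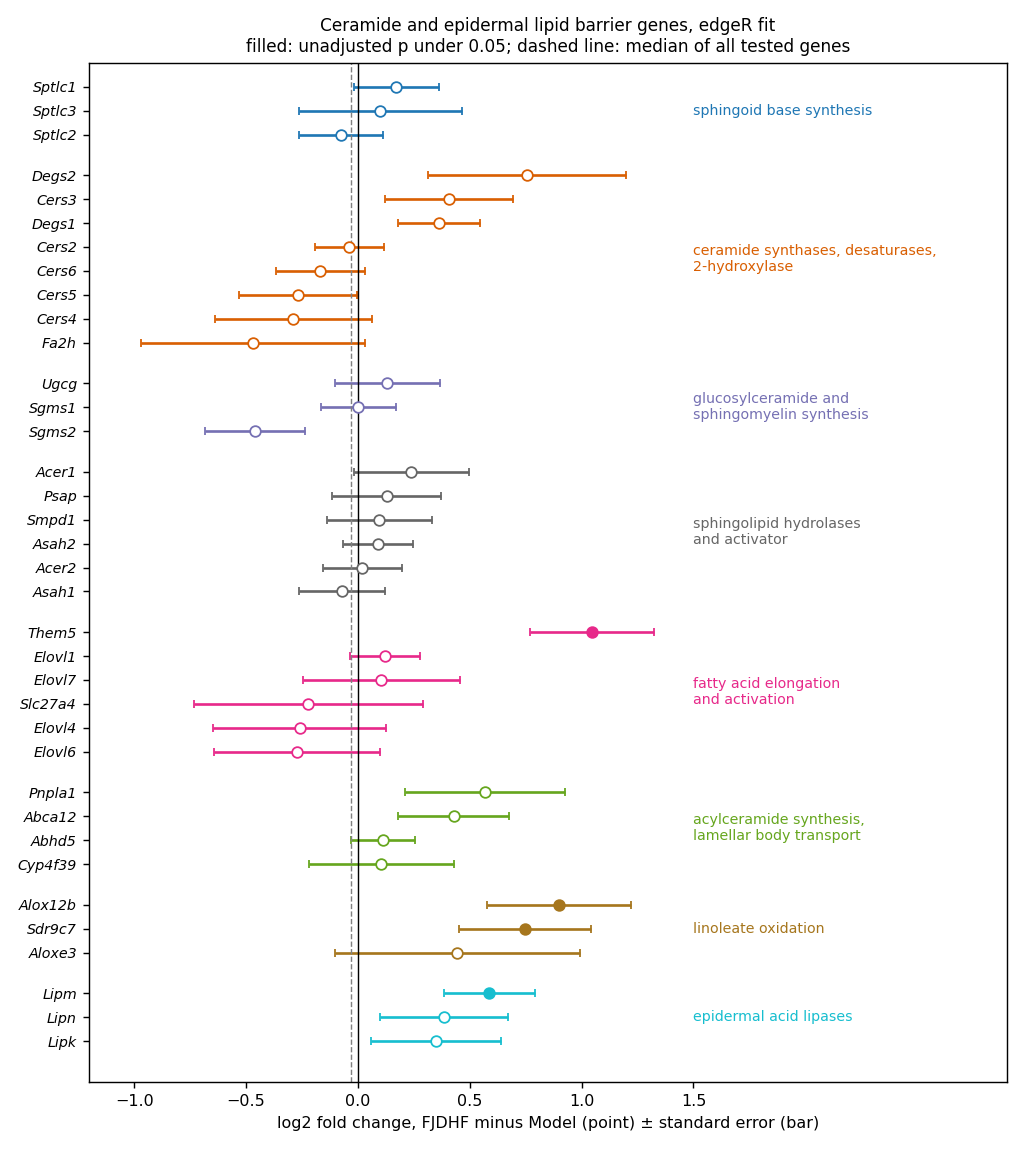
Log2 fold change of each member, FJDHF minus Model, from the edgeR fit (point) with its standard error (bar), grouped by role. Filled points have an unadjusted p under 0.05, and the dashed line is the median of all 20817 genes tested. The acylceramide, linoleate oxidation and acid lipase genes all lie to the right of 0, and the ceramide synthases lie on both sides.

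The direction of the fold changes was counted for each role along the pathway. In linoleate oxidation 3 of 3 genes had the higher level in the FJDHF group, with a median log2 fold change of 0.75, and the same held for 3 of 3 acid lipases (median 0.38) and 4 of 4 genes of omega-hydroxylation, acylceramide synthesis and lamellar body transport (median 0.27). The level was higher for 2 of 3 genes of sphingoid base synthesis (median 0.10) and for 3 of 8 ceramide synthases, desaturases and the 2-hydroxylase (median -0.10). The counts were 3 of 6 for fatty acid elongation and activation (median -0.06), 2 of 3 for glucosylceramide and sphingomyelin synthesis (median 0.00) and 5 of 6 for the hydrolases and their activator (median 0.09). The elongation and activation genes were listed together with Them5, a thioesterase, which had the largest log2 fold change among them, 1.05. The plot of log2 fold changes by role shows the spread within each role.

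Levels in single libraries are given below as CPM, counts scaled to the size of the library with TMM factors, in the order MR1, MR3, MR3_4, MR4_5 and MR5 for the FJDHF group and MXL1, MXL12, MXL3_4 and MXL_3 for the Model group. Two-sided exact permutation tests used all 126 ways to label 5 of the 9 libraries as FJDHF, and the smallest p they can give is 0.00794.

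Them5, a thioesterase of the acyl-CoA thioesterase superfamily, had the largest fold change of the members (ENSMUSG00000028148, chr3:94342099-94347352). Its levels were 149.9, 83.5, 114, 130.2 and 159 CPM in the FJDHF group and 95.2, 56.6, 57.3 and 37.4 CPM in the Model group. The groups overlapped only through MXL1, the highest Model library, which lay above MR3, and 4 of 5 FJDHF libraries were above all 4 Model libraries. The means were 127 ± 30.2 against 61.6 ± 24.2 CPM (SD, n = 5 and 4), a 2.07-fold difference (log2 fold change 1.05, SE 0.28). The exact permutation p was 0.0238, unadjusted, and the adjusted edgeR p = 1.00. The log2 fold change was 0.87 to 1.34 when any 1 library was left out, with an SE of 0.25 to 0.32.

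Lipm, an acid lipase expressed in the uppermost living layer of the epidermis, was also higher in the FJDHF group (ENSMUSG00000056078, chr19:34100933-34122687). Its levels were 150.3, 113, 107, 129 and 131 CPM in the FJDHF group and 111, 81.6, 88.2 and 54.3 CPM in the Model group. MXL1 again reached into the FJDHF range, just above MR3_4, and the other 3 Model libraries were below all FJDHF libraries. The means were 126 ± 16.9 against 83.9 ± 23.5 CPM (SD, n = 5 and 4), a 1.50-fold difference (log2 fold change 0.59, SE 0.20), with an unadjusted exact permutation p of 0.0159. Exons of the protein-coding gene Ankrd22 cover 34.9% of the Lipm exon bases on the opposite strand, and whether counting used the strand is not given in the sources used here. Ankrd22 itself lay at 33.8 to 56.8 CPM in the FJDHF group and 15.6 to 54.0 CPM in the Model group (log2 fold change 0.09, SE 0.33). The neighbouring acid lipases Lipn and Lipk, at 4.36 and 6.10 mean FPKM against 29.3 for Lipm, had log2 fold changes of 0.38 (SE 0.29, exact permutation p = 0.214) and 0.35 (SE 0.29, exact permutation p = 0.230), and their groups overlapped.

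Alox12b encodes the 12R-lipoxygenase that starts the oxidation of the linoleate on acylceramide (ENSMUSG00000032807, chr11:69156989-69169792). Its levels were 36.4, 29.5, 24.8, 27.6 and 23.1 CPM in the FJDHF group and 28.0, 11.0, 10.1 and 11.5 CPM in the Model group. The 3 Model libraries other than MXL1 were within 10.1 to 11.5 CPM, and MXL1 stood at the level of the FJDHF libraries, above 3 of the 5. The means were 28.3 ± 5.17 against 15.2 ± 8.56 CPM (SD, n = 5 and 4) (log2 fold change 0.90, SE 0.32), with an unadjusted exact permutation p of 0.0317. Without MXL1 the log2 fold change was 1.38 (SE 0.20, edgeR adjusted p = 0.211). Without MR1, MXL12, MXL3_4 or MXL_3 it was 0.75 to 0.79, and each of these fits left Alox12b at an unadjusted p above 0.05.

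Aloxe3, the epoxyalcohol synthase that acts on the product of Alox12b, was at the second lowest level of all members, 2.45 mean FPKM. Its levels were 24.6, 27.8, 14.5, 14.4 and 11.5 CPM in the FJDHF group and 33.9, 5.61, 6.34 and 8.69 CPM in the Model group. MXL1 was the highest library and the other 3 Model libraries were the lowest, so the groups overlapped only through MXL1. The log2 fold change was 0.45 (SE 0.55, exact permutation p = 0.230), and without MXL1 it was 1.43 (SE 0.35, edgeR adjusted p = 0.984).

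Sdr9c7, the dehydrogenase of the following oxidation step, had levels of 83.6, 47.9, 71.4, 84.5 and 51.2 CPM in the FJDHF group and 56.0, 47.1, 37.6 and 20.7 CPM in the Model group (ENSMUSG00000040127, chr10:127898518-127911761). MR1, MR3_4 and MR4_5 were above all Model libraries, while MR3 and MR5 lay among the higher Model libraries. The means were 67.7 ± 17.4 against 40.3 ± 15.1 CPM (SD, n = 5 and 4) (log2 fold change 0.75, SE 0.30), with an unadjusted exact permutation p of 0.0556. Leaving out MR1, MR3_4, MR4_5, MXL3_4 or MXL_3 took its unadjusted p in edgeR above 0.05, with log2 fold changes of 0.53 to 0.73.

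**Figure D2:**
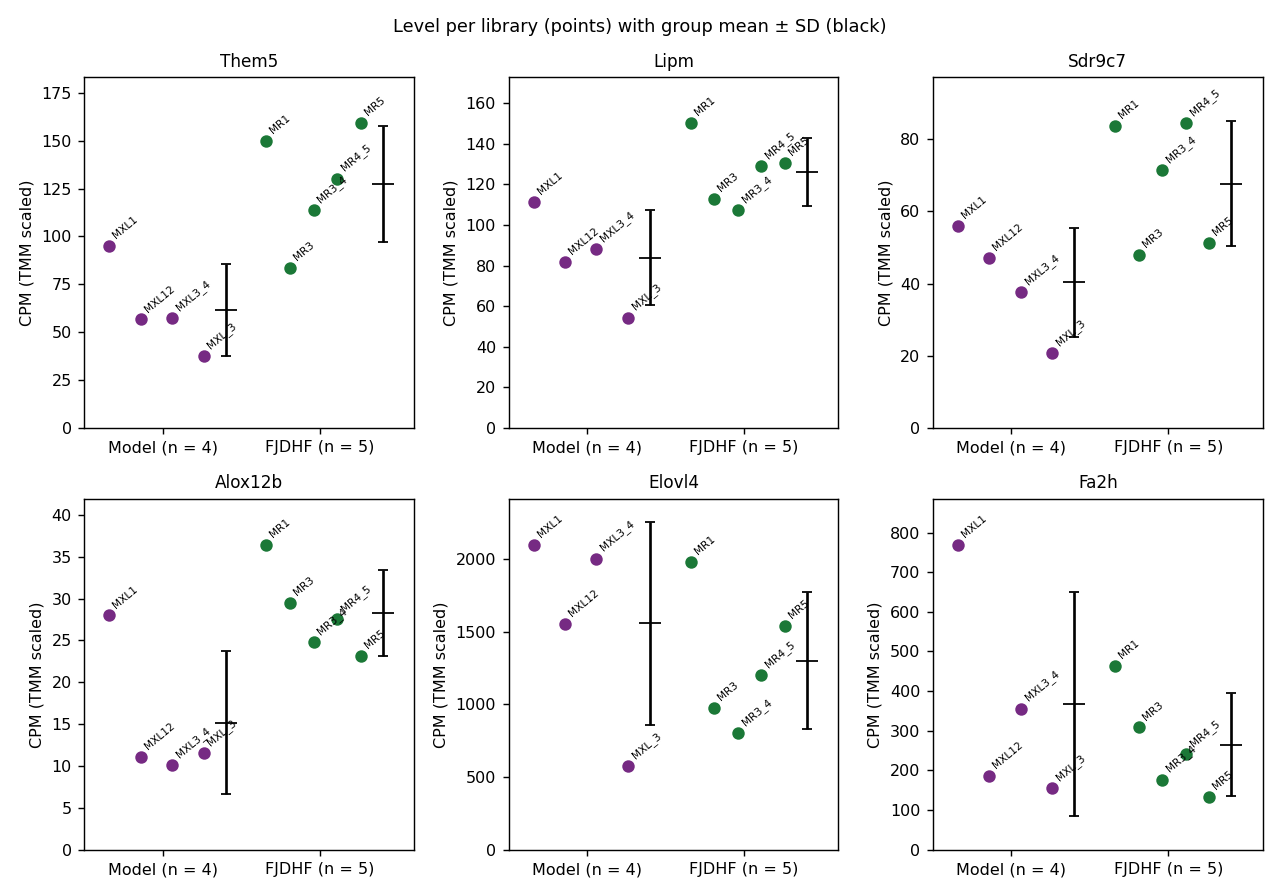
TMM-scaled CPM per library (points, with the library code) of Them5, Lipm, Sdr9c7, Alox12b, Elovl4 and Fa2h in the Model group (purple, n = 4) and the FJDHF group (green, n = 5), with the group mean and SD in black. MXL1 is the highest Model library in each of the 6 plots, and MXL_3 is the lowest in 5, the exception being Alox12b.

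The stretches just upstream of these 4 genes are shown because the genes shared a direction, together with those of Elovl4 and Elovl6, which followed another pattern described below. The sequences are RefSeq windows of build GRCm38.p6, read 5′ to 3′ on the strand of the gene. They end before the gene start given in the deposited table, and capitals mark motif matches. Windows reaching past that start were cut there, so 167 to 250 bases remain, and that of Elovl4 ends 28 bases before it. For 5 of the 6 genes, bases just after the RefSeq start were found in a GENCODE M21 transcript of the gene.
Them5, chr3:94341849-94342098, plus strand: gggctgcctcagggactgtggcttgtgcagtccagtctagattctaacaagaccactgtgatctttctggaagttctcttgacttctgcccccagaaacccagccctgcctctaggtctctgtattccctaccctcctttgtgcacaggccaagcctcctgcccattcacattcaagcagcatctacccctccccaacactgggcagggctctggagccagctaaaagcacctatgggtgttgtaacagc
Lipm, chr19:34100693-34100932, plus strand: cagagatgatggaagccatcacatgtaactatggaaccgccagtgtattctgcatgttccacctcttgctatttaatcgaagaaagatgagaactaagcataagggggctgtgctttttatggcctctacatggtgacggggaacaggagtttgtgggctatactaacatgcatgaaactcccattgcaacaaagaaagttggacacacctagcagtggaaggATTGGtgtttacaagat
Sdr9c7, chr10:127898285-127898517, plus strand: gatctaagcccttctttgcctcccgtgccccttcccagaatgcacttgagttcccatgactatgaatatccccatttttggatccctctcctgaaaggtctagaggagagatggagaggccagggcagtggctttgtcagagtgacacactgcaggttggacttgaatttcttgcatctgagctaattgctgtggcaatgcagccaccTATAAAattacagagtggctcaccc
Alox12b, chr11:69156822-69156988, plus strand: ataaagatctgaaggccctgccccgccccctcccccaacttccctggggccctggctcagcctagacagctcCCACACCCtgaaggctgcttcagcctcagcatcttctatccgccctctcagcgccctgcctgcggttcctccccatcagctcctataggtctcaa
Elovl4, chr9:83806306-83806555, minus strand: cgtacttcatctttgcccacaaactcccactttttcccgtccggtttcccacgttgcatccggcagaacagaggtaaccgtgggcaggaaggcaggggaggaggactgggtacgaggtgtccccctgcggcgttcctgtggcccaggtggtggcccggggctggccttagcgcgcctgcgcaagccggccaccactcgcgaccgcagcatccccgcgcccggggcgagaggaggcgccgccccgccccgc
Elovl6, chr3:129532136-129532354, plus strand: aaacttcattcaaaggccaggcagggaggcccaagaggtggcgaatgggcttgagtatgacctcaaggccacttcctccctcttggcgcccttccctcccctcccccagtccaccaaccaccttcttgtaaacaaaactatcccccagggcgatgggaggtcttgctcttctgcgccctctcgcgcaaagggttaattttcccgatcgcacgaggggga
The motifs searched on both strands were the TATA box (TATAAA), the CCAAT box (CCAAT), AP-1 (TGANTCA), a KLF element (GGGTGNGG), a GRHL element (AACCNGTT), C/EBP (TTGCNNAA) and the E-box (CANNTG). E-box matches, present in 66.2% of all windows and 27 of the 43 windows of members, were not marked or searched further, and none of the marked matches overlap. Sdr9c7 held a TATA box that starts 25 bases before its gene start, Lipm a CCAAT box on the other strand at 17 bases and Alox12b a KLF element on the other strand at 95 bases. Them5, Elovl4 and Elovl6 held none of the other 6 motifs in the stretch shown, which says only that these letters are not in it. In whole windows, the TATA box was present in 12.4% of all 32851 windows and in 1 of the 43 windows of members, and CCAAT in 33.8% and 11 of 43. AP-1 was present in 6.75% of all windows and 6 of 43, KLF in 14.9% and 10 of 43, GRHL in 1.79% and 1 of 43, and C/EBP in 9.56% and 2 of 43. Windows were found for 32 of the 36 members, some of which have several.

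In acylceramide synthesis and transport, Abhd5, the cofactor of Pnpla1 in the transfer of linoleate, was the most abundant gene at 20.7 mean FPKM and the steadiest of all members. Its levels were 142, 109.8, 144, 137 and 139 CPM in the FJDHF group and 114, 142, 136 and 106 CPM in the Model group. Both groups spanned nearly the same range, and the coefficient of variation over the 9 libraries was 11.8% (log2 fold change 0.11, SE 0.14, exact permutation p = 0.310). An antisense gene covers 16.0% of the Abhd5 exon bases on the other strand.

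Pnpla1, the transacylase that makes acylceramide, had a log2 fold change of 0.57 (SE 0.36, exact permutation p = 0.175), and Abca12, the lamellar body transporter of glucosylceramides, one of 0.43 (SE 0.25, exact permutation p = 0.0952). For Abca12, 3 of 5 FJDHF libraries were above all Model libraries, at 172 to 219 CPM, while the Model group held 70.0 to 164 CPM with MXL_3 lowest. Cyp4f39, the fatty acid omega-hydroxylase, differed least of the 4 (log2 fold change 0.10, SE 0.32). Single Model libraries moved these values. Without MXL_3 the log2 fold change was 0.22 for Abca12 (SE 0.18), 0.38 for Pnpla1 and -0.14 for Cyp4f39, and without MXL1 that of Pnpla1 was 0.89 (SE 0.35, edgeR adjusted p = 0.984).

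Sphingoid base synthesis is carried out by serine palmitoyltransferase, whose common subunit is Sptlc1. Its levels were 94.2, 83.9, 79.8, 102 and 92.6 CPM in the FJDHF group and 100.3, 83.9, 86.1 and 51.1 CPM in the Model group. Apart from MXL_3, the libraries of both groups lay between 79.8 and 102 CPM (log2 fold change 0.17, SE 0.19, exact permutation p = 0.357). The catalytic subunits Sptlc2 and Sptlc3 had log2 fold changes of -0.08 (SE 0.19) and 0.10 (SE 0.36). Sptlc2 turned to 0.11 without MXL12, and Sptlc3 to -0.16 without MXL_3.

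Among the ceramide synthases the genes did not share a direction. Cers3, which uses the ultra-long acyl chains of epidermal ceramides, had 62.6 ± 9.16 against 47.2 ± 18.1 CPM (SD, n = 5 and 4), with 3 of the 4 Model libraries at 55.8 to 57.1 CPM and MXL_3 at 20.0 CPM (log2 fold change 0.41, exact permutation p = 0.111). Without MXL_3 the log2 fold change of Cers3 was 0.15. Cers2, Cers4, Cers5 and Cers6 were all on the lower side, at -0.04, -0.29, -0.27 and -0.17. Their SEs were 0.16, 0.35, 0.26 and 0.20, and that of Cers3 over all libraries was 0.29.

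Cers4 had the largest negative value of them. Its levels were 319, 195, 136, 195 and 183 CPM in the FJDHF group and 415, 202, 273 and 115 CPM in the Model group. MXL1 and MR1 were highest and MXL_3 lowest, so each group spanned most of the range (log2 fold change -0.29, SE 0.35, exact permutation p = 0.659), and without MXL1 the log2 fold change was 0.06.

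Of the desaturases, Degs1 introduces the double bond of the common sphingosine base and Degs2 the hydroxyl group of phytosphingosine. Degs1 stood at 65.8 mean FPKM and had 198 ± 39.5 against 154 ± 23.5 CPM (SD, n = 5 and 4, log2 fold change 0.36, exact permutation p = 0.103). Degs2 was the lowest member at 2.26 mean FPKM. Its levels were 11.1, 5.91, 6.85, 9.02 and 4.60 CPM in the FJDHF group and 4.48, 8.56, 2.62 and 2.10 CPM in the Model group. MXL12 was the third highest of all libraries, and the other 3 Model libraries were below all FJDHF libraries (log2 fold change 0.75, SE 0.44, exact permutation p = 0.0952). Without MXL12 the log2 fold change was 1.29 (SE 0.39, edgeR adjusted p = 1.00).

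Fa2h, the fatty acid 2-hydroxylase, was the most abundant gene of this role at 98.5 mean FPKM, with the largest variation of all members. Its levels were 464, 308, 176, 242 and 133 CPM in the FJDHF group and 769, 186, 356 and 155 CPM in the Model group. MXL1 alone stood at 769 CPM, and the other 3 Model libraries lay within or near the FJDHF range. The coefficient of variation was 65.5% over the 9 libraries, and the log2 fold change of -0.47 (SE 0.50, exact permutation p = 0.603) was 0.19 without MXL1.

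Ceramide is passed on by glucosylceramide synthase (Ugcg) and by the sphingomyelin synthases Sgms1 and Sgms2. Ugcg had levels of 130.0, 110.0, 133, 145 and 139.6 CPM in the FJDHF group and 82.7, 194, 104 and 99.5 CPM in the Model group. The FJDHF libraries were close together, and MXL12 was above and the other 3 Model libraries below all of them (log2 fold change 0.13, SE 0.24, exact permutation p = 0.429). Without MXL12 the log2 fold change was 0.46 (SE 0.15, edgeR adjusted p = 1.00), and without MXL1 it was -0.01.

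Sgms2 was the only member, besides Fa2h, with a log2 fold change below -0.30. Its levels were 20.5, 20.2, 19.1, 22.8 and 21.8 CPM in the FJDHF group and 21.9, 44.5, 26.7 and 22.0 CPM in the Model group. In the FJDHF group all 5 libraries lay within 19.1 to 22.8 CPM, 4 of them below all Model libraries, and MXL12 stood apart at the top. The difference (log2 fold change -0.46, SE 0.23) had an unadjusted exact permutation p of 0.0317, while edgeR did not put it under an unadjusted 0.05. Without MXL12 the log2 fold change was -0.17 (SE 0.17). Sgms1 had a log2 fold change of 0.00 (SE 0.17).

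The hydrolases that release ceramide or cleave it did not differ beyond the spread between libraries. Psap, the precursor of the saposins that activate glucosylceramide and sphingomyelin hydrolysis in lysosomes and lamellar bodies, was the second most abundant member at 362 mean FPKM. Its levels were 1426, 966, 1289, 999.7 and 773 CPM in the FJDHF group and 997, 792, 803 and 1397 CPM in the Model group. MR1 and MXL_3 were the highest and MR5 and MXL12 the lowest (log2 fold change 0.13, SE 0.24, exact permutation p = 0.683). The acid sphingomyelinase Smpd1 and the ceramidases Asah1, Asah2, Acer1 and Acer2 had log2 fold changes of -0.07 (Asah1) to 0.24 (Acer1), with exact permutation p of 0.421 or more.

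Fatty acid elongation held the most abundant member, Elovl4, the elongase of very long chains, at 445 mean FPKM. Its levels were 1979, 973, 799, 1201 and 1542 CPM in the FJDHF group and 2098, 1549.7, 2002 and 576 CPM in the Model group. MXL1, MXL3_4 and MR1 were highest and close together, and MXL_3 was lowest, so the groups overlapped over nearly the whole range (log2 fold change -0.26, SE 0.38, exact permutation p = 0.706). Elovl6, which elongates palmitate, ran in parallel with it at 131 mean FPKM. The FPKM ratio of Elovl6 to Elovl4 was 0.274 to 0.332 in the 9 libraries, a 1.21-fold range, while Elovl4 itself ranged 3.64-fold. Elovl7 and Elovl1 had log2 fold changes of 0.10 and 0.12, and Slc27a4, a fatty acid transport protein with acyl-CoA synthetase activity, one of -0.22 with the second largest coefficient of variation, 62.8%. Without MXL1 the value of Slc27a4 turned to 0.52 (SE 0.41), and without MXL_3 that of Elovl7 turned to -0.17 (SE 0.24).

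The libraries ordered many members alike. MXL_3 was the lowest of the 9 libraries for 20 of 36 members, with a median log2 deviation of -0.71 from the mean of the 9 libraries, and it was the lowest Model library for 24. MXL1 was the highest Model library for 21 members, and MR1 and MXL1 were each the highest of all libraries for 8. No member had groups without overlap, and 0.514% of all genes tested did. Without MXL1 there were 5 such members, Them5, Alox12b, Aloxe3, Sdr9c7 and Lipm, where 2.62% of all genes then did not overlap, and 8 members had an unadjusted p under 0.05, which then held for 3.38% of all genes. Without MXL_3, 20 of 36 members were on the higher side and 3 had an unadjusted p under 0.05, namely Them5 and Lipm on the higher and Sgms2 on the lower side (2.22% of all genes).

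**Figure D3:**
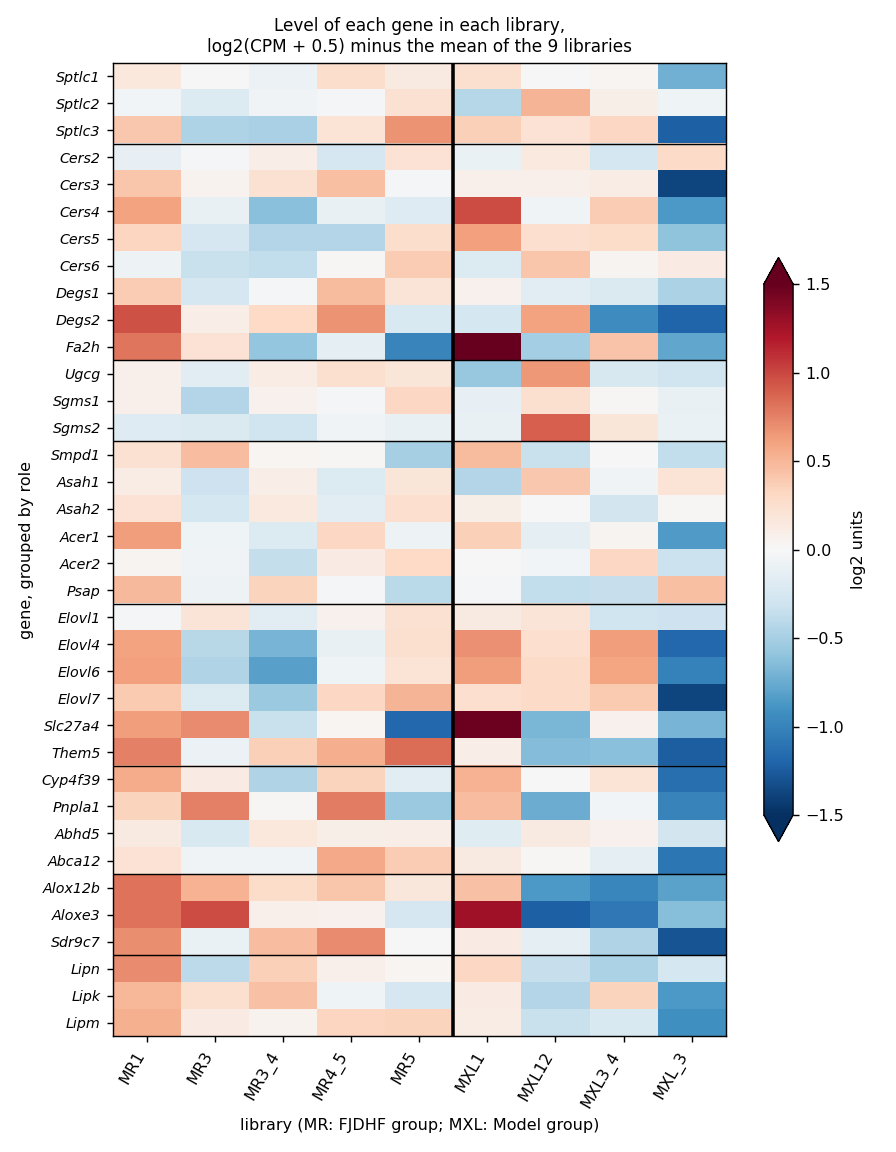
Level of each of the 36 members (lines of cells, grouped by role) in each library (columns), as log2(CPM + 0.5) minus the mean of the 9 libraries. The column of MXL_3 is mostly blue (median deviation -0.71) and that of MR1 mostly red (0.40). The columns of MR5 and MXL1 follow MR1, with median deviations of 0.18 and 0.13.

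The members were set beside marker scores of 11 cell types or tissues, each the mean log2(CPM + 0.5) of a list of marker genes that contains no member. Of the 396 correlations computed across the 9 libraries, 7 had a Benjamini-Hochberg adjusted exact permutation p under 0.05 for Pearson's r. They fell on 2 scores. Elovl4, Elovl6, Cers5 and Cers4 followed the sebaceous gland score, and Lipm, Sdr9c7 and Them5 followed the differentiated keratinocyte score.

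With the sebaceous gland score, Elovl4 had r = 0.95 (exact permutation p = 3.31e-05, adjusted 0.0131) and rho = 0.98 (exact permutation p = 4.96e-05, adjusted 0.0196). Elovl6 had r = 0.95 (exact permutation p = 0.000102, adjusted 0.0156) and rho = 0.97 (adjusted 0.0218), Cers5 had r = 0.93 (adjusted exact permutation p = 0.0156) and rho = 0.97 (adjusted 0.0218), and Cers4 had r = 0.93 (adjusted 0.0376) and rho = 0.92 (adjusted 0.0866). With each group's mean subtracted, r was 0.93 to 0.97 for these 4 genes. Without the 2 libraries farthest from the median score it was 0.87 to 0.94. The sebaceous gland list contains lipid synthesis genes such as Scd1, Far2 and Elovl3, and Plin5 was listed at 0 in 1 library of the FJDHF group.

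With the differentiated keratinocyte score, Lipm had r = 0.95 (exact permutation p = 0.000309, adjusted 0.0244) and rho = 0.77 (exact permutation p = 0.0214, adjusted 0.446). Sdr9c7 had r = 0.93 (exact permutation p = 0.000278, adjusted 0.0244) and rho = 0.95 (adjusted 0.0349), and Them5 had r = 0.92 (exact permutation p = 0.000664, adjusted 0.0376) and rho = 0.75 (adjusted 0.474). Alox12b had r = 0.89 with the same score (adjusted exact permutation p = 0.105). With each group's mean subtracted, r was 0.79 to 0.89 for the first 3 and 0.74 for Alox12b, and without the 2 farthest libraries it was 0.79 to 0.96 and 0.88. These scores and the members were measured in the same libraries and share their tissue content.

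**Figure D4:**
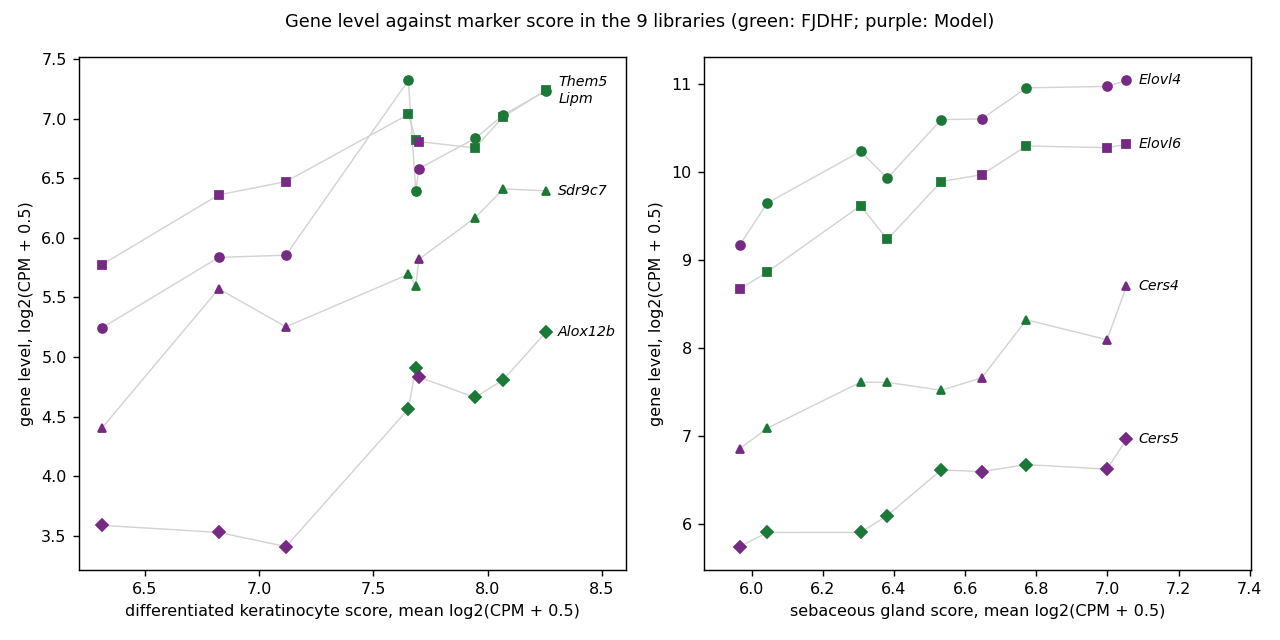
Level of 4 members, log2(CPM + 0.5), against the differentiated keratinocyte score (left) and of 4 other members against the sebaceous gland score (right), in the 9 libraries. Symbols differ by gene, green marks FJDHF and purple Model libraries, and grey lines join the libraries of a gene in the order of the score. The green points lie towards the right of the left plot, with 1 purple library among them.

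Marker levels were also compared between the groups. Of all genes tested, 44.1% had the higher level in the FJDHF group, 0.773% at an unadjusted p under 0.05 in edgeR. The lower level was found for 55.9%, with 0.759% at that p. The differentiated keratinocyte score was 7.65 to 8.25 in the FJDHF group and 6.31 to 7.70 in the Model group, and 19 of its 20 genes had the higher level in the FJDHF group, 10 of them at an unadjusted p under 0.05. The summed level of that list was 11804 to 21895 CPM against 4557 to 12913 CPM. The sebaceous gland score was 6.04 to 6.77 against 5.97 to 7.05, so the Model range enclosed that of the FJDHF group, while 9 of its 10 genes were on the lower side and Mc5r was the only 1 at an unadjusted p under 0.05. The differentiated keratinocyte score was then used as a covariate, an alternative added after the data were seen. Its mean was 7.92 in the FJDHF group and 6.99 in the Model group, so this fit cannot separate the score from the group. None of the 4 members higher in the FJDHF group kept an unadjusted p under 0.05 in this fit. Their log2 fold changes were then 0.36 for Them5, 0.02 for Lipm, 0.17 for Alox12b and -0.18 for Sdr9c7, with SEs of 0.31, 0.22, 0.35 and 0.31 (edgeR adjusted p = 1.00 for each). In that fit 8 members had an unadjusted p under 0.05, all on the lower side (1.63% of all genes), namely Fa2h, Cers4, Elovl4, Slc27a4, Elovl6, Cyp4f39, Acer1 and Cers5. With the sebaceous gland score as a covariate, also added after the data were seen, 12 members were under 0.05, all on the higher side (1.72% of all genes), the 4 named first among them. No member passed an adjusted p of 0.05 in either fit (edgeR, Benjamini-Hochberg). The basal keratinocyte score was 6.79 to 7.88 against 6.38 to 8.16, and with it as a covariate the same 4 members were under 0.05 (1.7% of all genes). With the skeletal muscle score as a covariate, 8 members were under 0.05, all on the higher side (1.33% of all genes), namely the 4 named first, Abca12, Cers3, Degs1 and Degs2.

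Of the other marker lists, some had all of their genes on one side without passing an adjusted p of 0.05 (edgeR). Beside them, 55.9% of all genes tested were on the lower and 44.1% on the higher side, and 1.53% had an unadjusted p under 0.05 (edgeR). All 8 fibroblast genes were on the lower side in the FJDHF group, with a score of 10.34 to 11.25 against 10.95 to 11.62, a summed level of 19364 to 34369 CPM against 27114 to 47671 CPM and 1 gene at an unadjusted p under 0.05. All 8 neutrophil genes were also on the lower side, with 0 under 0.05. Their score was 2.72 to 3.60 against 2.15 to 5.40, the highest being MXL12. The Model libraries MXL1 and MXL3_4, at 2.15 and 2.28, scored below every FJDHF library, and MXL_3 had 3.55. All 10 macrophage genes were on the higher side, again with 0 under 0.05, and the scores were 5.93 to 7.24 against 5.69 to 7.10. The activated keratinocyte score was 5.13 to 7.13 against 3.89 to 6.60, with 5 of 8 genes on the higher side. Hair follicle, white adipocyte and T cell lists had 5 of 9, 7 of 10 and 5 of 8 genes on the higher side and overlapping scores. The part of these lists in the differences of the members was not tested.

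Shares of 7 isoenzymes in their families were compared within libraries. Cers3 made up 20.9, 20.9, 24.6, 27.5 and 17.0% of the summed FPKM of Cers2 to Cers6 in the FJDHF group and 15.0, 18.1, 18.8 and 9.24% in the Model group. MR5 was the FJDHF library within the Model range. The means were 22.2 ± 4.03% and 15.3 ± 4.34% (SD, n = 5 and 4, exact permutation p = 0.0397, adjusted over the 7 shares 0.278). Without MXL_3 the difference was 4.89 percentage points (exact permutation p = 0.107) in place of 6.91.

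Sgms2 made up 35.0 ± 4.35% of both sphingomyelin synthases in the FJDHF group and 41.3 ± 5.35% in the Model group (SD, n = 5 and 4, exact permutation p = 0.0873, adjusted 0.306). The shares of Sptlc3, Degs2, Acer1, Elovl4 and Aloxe3 had exact permutation p of 0.317 or more. Elovl4 made up 63.0 to 70.2% of the summed FPKM of Elovl1, Elovl4, Elovl6 and Elovl7 in the 9 libraries.

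**Figure D5:**
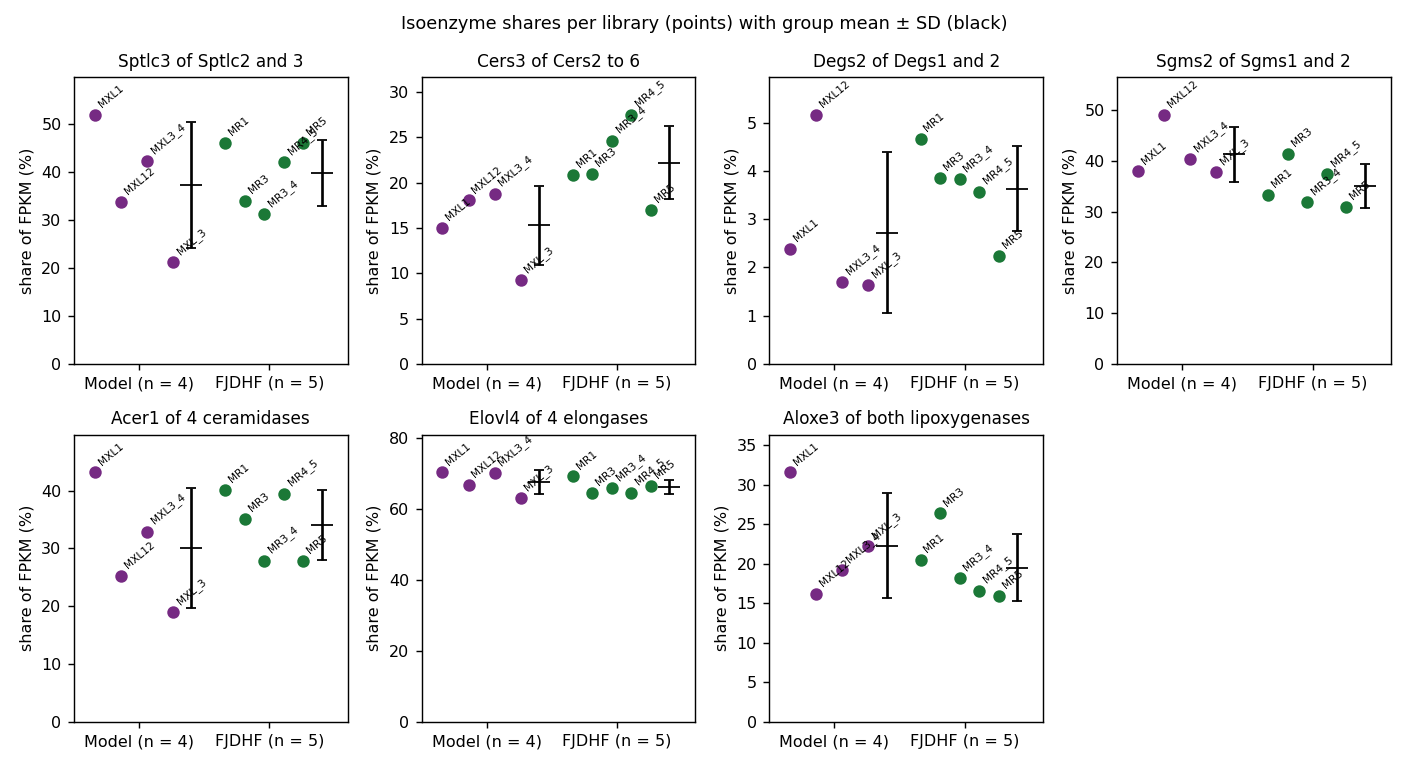
Share of each named isoenzyme in the summed FPKM of its family (%), per library (points with the library code), with the group mean and SD in black, for the Model group (purple, n = 4) and the FJDHF group (green, n = 5). The Cers3 share is lowest in MXL_3, and 4 of the 5 FJDHF libraries lie above all Model libraries.

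Other genes of the pathway were counted in 4 lists made for this comparison. For all genes tested, 1.53% had an unadjusted p under 0.05 in edgeR and 44.1% were on the higher side. Lists this short cannot tell a count of 0 or 1 under 0.05 from that share. Of 34 other sphingolipid genes, 18 were on the higher and 16 on the lower side, and 0 had an unadjusted p under 0.05 in the edgeR test. The log2 fold changes of this list ran from -0.62 to 1.43. Among those with the lower p were the fatty acid elongase Elovl5 (log2 fold change -0.62, SE 0.30) and the neutral sphingomyelinase Smpd3 (1.04, SE 0.54), both at an edgeR adjusted p = 1.00. Of 16 other acylceramide and lamellar body genes, 11 were on the higher and 5 on the lower side and 0 had an unadjusted p under 0.05, with Aldh3a2, Fabp5 and Dgat2 lowest in p at log2 fold changes of -0.17, 0.45 and 0.35.

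Of 21 cholesterol synthesis genes, the other lipid class of the barrier, 10 were on the higher and 11 on the lower side and 0 had an unadjusted p under 0.05, the lowest p being those of Ebp, Dhcr7 and Hmgcs1 at log2 fold changes of 0.33, 0.31 and -0.32. Of 16 regulators of epidermal lipid genes, 9 were on the higher and 7 on the lower side. Klf4, a transcription factor of the differentiating epidermis, was the only 1 with an unadjusted p under 0.05, at 188.6 to 304 CPM in the FJDHF group and 147 to 228 CPM in the Model group (log2 fold change 0.62, SE 0.19, edgeR adjusted p = 1.00). Ppara, a fatty acid receptor, and Cebpa followed at -0.59 (SE 0.29) and 0.35 (SE 0.18). No gene of these 4 lists passed an adjusted p of 0.05 (edgeR, Benjamini-Hochberg).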

How the data were processed

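RNA of back skin was sequenced by the authors as strand-specific libraries. The authors deposited whole-number read counts per gene, not normalized, and FPKM values, which they scaled for gene length and depth. The submitters' processing notes name HISAT, StringTie, DESeq2 and the build mm10, with no versions, and the annotation release and the strand setting are not given in the sources used here. A further 9 columns of per-library values in the FPKM table were not used.

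The count table was fitted with edgeR 4.0.16 under R 4.3.3, using filterByExpr, TMM scaling and the robust quasi-likelihood test without covariates, and p-values were adjusted by Benjamini-Hochberg over 20817 genes. Fold changes are FJDHF over Model, and p-values are unadjusted unless called adjusted. Those of the group comparisons set the difference between groups against the variation between libraries. Single genes and shares were compared by two-sided exact permutation tests on log2(CPM + 0.5) or on percent, and correlations by enumerating all pairings (scipy 1.17.1, Benjamini-Hochberg over all relations of r or of rho). Alternatives were DESeq2 1.42.0, its size factors, limma 3.58.1 on log2(FPKM + 1), other filters and pseudocounts, covariates, a replicate block and leaving out each library. The edgeR, DESeq2 and limma fits without covariates were tried on simulated counts, with planted changes larger than that of any member. The shares, correlations and covariate fits were not simulated. A count of 3 is 0.0377 to 0.0402 CPM at these depths, for counting error only. Overlapping exons came from GENCODE M21, in which all 36 genes were found and 30 had the same start and end. Runs of 75 bases shared with other genes made up 2.05% of Elovl6 and under 0.10% of every other member.

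The members and lists were chosen with earlier results of these data known. Values per library are given for members under an unadjusted p of 0.05, the most abundant member of each role and the 3 largest fold changes in each direction. Aloxe3 was added after its values were seen. Krt85 was not matched in the tables.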

Additional observations from a re-analysis of the deposited data

Results flagged for a closer look

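Within groups, 5 of 88 comparisons had 1 library far from the others by Dixon's ratio, the gap to the nearest library divided by the range of the group, where chance gives about 4.4. In the Model group, MXL_3 was far below the others for Cers3 (ratio 0.978, 20.0 CPM where the others had 55.8 to 57.1), for Elovl7 (0.924, 69.5 CPM where the others had 216 to 237) and for Sptlc3 (0.911, 9.82 CPM where the others had 27.7 to 30.6). MXL1 was far above the others for Alox12b (0.875, 28.0 CPM where the others had 10.1 to 11.5). In the FJDHF group, MR3 was far below the others for Abhd5 (0.813, 109.8 CPM where the others had 137 to 144).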

How the results depend on the processing

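No member passed an adjusted p of 0.05 in any of the 19 alternative fits (edgeR, DESeq2 or limma), and the unadjusted counts moved with covariates and single libraries. Members under an unadjusted p of 0.05 numbered 8 with the skeletal muscle score as covariate (8 higher, 2.1% of all genes in either direction), 8 with the differentiated keratinocyte score (0 higher and 8 lower, 2.7% of all genes) and 12 with the sebaceous gland score (12 higher, 2.54% of all genes). The split of directions was 14 higher and 22 lower with the differentiated keratinocyte score and 31 higher and 5 lower with the sebaceous gland score. With the differentiated keratinocyte score the log2 fold change of Sptlc1 turned to -0.32 and that of Sdr9c7 to -0.18, and with the sebaceous gland score Cers4 turned to 0.19, Fa2h to 0.13 and Elovl4 to 0.28. The cause was not tested.

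Leaving out 1 library at a time, members under an unadjusted p of 0.05 ranged from 2 to 8, where all genes ranged from 1.05% without MR4_5 to 3.38% without MXL1, the fit with the 8 members, those on the higher side from 2 to 7 and those on the lower side from 0 to 1. Members with groups that do not overlap ranged from 0 to 5, with 0.764% (without MR4_5) to 2.62% (without MXL1) of all genes. The log2 fold change of Cers4 ranged from -0.53 to 0.064, of Fa2h from -0.78 to 0.19 and of Ugcg from -0.010 to 0.46, and the difference in share from -4.82 to 0.306 percentage points for Aloxe3 and from -2.77 to 7.50 for Sptlc3. Of the 36 members, 27 had the opposite sign in at least 1 of the 19 alternatives and 9 did not. The only opposite sign of Sptlc1, Cers3, Cers6, Degs1, Acer1, Abca12, Pnpla1, Aloxe3, Sdr9c7, Lipn and Lipk came with the differentiated keratinocyte covariate. That fit cannot separate the score from the group. For Cers5, Elovl4 and Elovl6 it came only with the sebaceous gland covariate. None of these genes changed sign when a single library was left out. The exact permutation p on log2(FPKM + 1) was 0.0635 for Sgms2 and 0.0476 for Sdr9c7.

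Some column codes of the groups share numbers (1, 3 and 3_4). A replicate block over these 6 libraries gave 4 members under an unadjusted p of 0.05 (Them5, Degs2, Sdr9c7 and Alox12b), where 1.19% of all genes met it, and 27 on the higher side. The deviations of same-numbered libraries correlated at 0.22, 0.12 and -0.22, and 1 of 6 libraries correlated best with its own number, so the numbers were not taken as pairs. The 5 and 4 libraries varied in their marker scores. Differences smaller than the standard errors given could not be resolved at this number of libraries. Larger ones did not pass an adjusted p of 0.05 either (edgeR), including that of Them5 (log2 fold change 1.05, SE 0.28).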
